A study of Mus musculus with 8 samples.

Results

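The RANK ligand, osteoprotegerin and CSF1 axis is the signalling system by which bone-forming cells control the formation of osteoclasts, the cells that resorb bone. Its members here are 6 genes chosen by name. They are the ligands Tnfsf11 (RANK ligand), Csf1 and Il34, the decoy receptor Tnfrsf11b (osteoprotegerin), the receptor Tnfrsf11a (RANK) and the adaptor Traf6. All 6 were measured, each by 1 probe set with a single gene symbol, among 19938 genes. The rule uses gene names and no threshold on values, and was set with earlier results of these data known.

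The samples were 8 primary osteosarcomas (malignant tumours of bone-forming cells) from C57Bl6 mice, each read on its own array. The 4 shRNA OS tumours carried P53.1224, a transgenic short hairpin RNA against p53, and the 4 Cre:lox OS tumours carried P53fl/fl. In shRNA OS, replicates 1, 3 and 4 were Rbfl/+ and replicate 2 was Rb+/+. In Cre:lox OS, replicates 2, 3 and 4 were Rbfl/+ and replicate 1 was Rb+/+. Tibial tumours were replicates 1, 2 and 3 of shRNA OS with replicates 3 and 4 of Cre:lox OS. The humerus was the site of shRNA OS replicate 4 and Cre:lox OS replicate 2, and the scapula that of Cre:lox OS replicate 1. Every tumour had p53 targeted in 1 of these ways, so neither normal bone nor a tumour with intact p53 serves as a control. The labels name neither the promoter that drives the hairpin or Cre nor the age of the mice, and whether tumours came from separate mice is given only by their separate numbers. If they did not, the p-values measure only the spread between samples.

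RANK ligand, made by osteoblasts, osteocytes and some lymphocytes, binds RANK on cells of the macrophage lineage. RANK recruits Traf6, which turns on NF-kB and then Nfatc1, the transcription factor that drives the osteoclast programme. Osteoprotegerin is a secreted decoy that captures RANK ligand, so the balance of the ligand and the decoy sets how much signal reaches RANK. CSF1 and IL-34 share no clear sequence similarity but signal through the same receptor, Csf1r, which keeps osteoclast precursors and macrophages alive.

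RefSeq promoter sequence (GRCm38.p6) was matched by symbol for 4 of the 6 genes: Tnfsf11, Tnfrsf11a, Csf1 and Traf6. The 250 bases before the gene start are shown for Tnfsf11, the ligand that heads the pathway, and for Csf1 and Tnfrsf11a, the closest positive pair among the members over the tumours, although that pair did not pass adjustment. Capitals mark matches on either strand to the letters TATAA (TATA box) or GGGCGG (GC box).
Tnfsf11, chr14:78308044-78308293, minus strand: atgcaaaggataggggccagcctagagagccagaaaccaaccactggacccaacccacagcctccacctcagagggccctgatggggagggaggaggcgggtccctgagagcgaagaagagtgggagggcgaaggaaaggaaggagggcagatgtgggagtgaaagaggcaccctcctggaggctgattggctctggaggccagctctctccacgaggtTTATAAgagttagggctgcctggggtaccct
Csf1, chr3:107760470-107760719, minus strand: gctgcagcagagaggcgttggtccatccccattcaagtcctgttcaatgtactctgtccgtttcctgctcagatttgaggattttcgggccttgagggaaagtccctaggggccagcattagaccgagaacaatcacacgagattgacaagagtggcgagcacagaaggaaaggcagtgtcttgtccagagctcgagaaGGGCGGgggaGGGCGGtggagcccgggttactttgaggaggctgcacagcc
Tnfrsf11a, chr1:105780473-105780722, plus strand: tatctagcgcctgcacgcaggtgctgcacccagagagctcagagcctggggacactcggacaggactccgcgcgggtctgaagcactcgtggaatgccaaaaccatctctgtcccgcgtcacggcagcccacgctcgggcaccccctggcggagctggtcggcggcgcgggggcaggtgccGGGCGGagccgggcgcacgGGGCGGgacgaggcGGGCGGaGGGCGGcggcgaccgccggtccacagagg

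The Tnfsf11 sequence held 2 overlapping TATAA matches, 1 on each strand of a single stretch, and no GGGCGG. Tnfrsf11a held 4 and Csf1 held 2 GGGCGG matches and neither held TATAA. Of 32851 promoters of this length 22.8% held TATAA and 32.7% held GGGCGG. The letters TGANTCA (AP-1; 6.7% of promoters) and TGTGGT (RUNX; 14.0%) were also searched on both strands. Neither was found in these 3 sequences, and Traf6 held TGTGGT once. The matches describe letters only.

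The values of a gene in a model are always given in the order of its replicates 1 to 4. They are log2 expression computed by the authors with RMA, so a difference of 1 is a doubling. Each probe set has its own affinity, so a gene is compared with itself across tumours and never with another gene. Array medians lay between 7.13 and 7.23, and the number of arrays limits the precision. One array, that of replicate 2 of shRNA OS, correlated less with the others (0.941 on average) than did the remaining 7 (0.961 to 0.968). Its interquartile range was also narrower (2.59 against 2.79 to 3.19). Genes of bone-forming cells were read in every tumour, with Sp7, the osteoblast transcription factor, between 9.32 and 10.63 and Col1a1, the main bone collagen, between 13.00 and 13.61.

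Tnfsf11 was 8.82, 9.74, 9.13 and 9.42 in shRNA OS and 9.98, 8.99, 9.29 and 8.43 in Cre:lox OS. The scapular Cre:lox OS tumour was highest and a tibial tumour of the same model lowest, 2.93-fold apart, and the models overlapped throughout. The 2 highest tumours, Cre:lox OS replicate 1 and shRNA OS replicate 2, were the 2 Rb+/+ tumours, 1 in each model. The array of shRNA OS replicate 2 was that which correlated less with the others. The model means were 9.28 ± 0.39 and 9.17 ± 0.65 (SD, n = 4 each). Their difference, shRNA OS minus Cre:lox OS, was 0.11 (SE 0.32, 95% interval -0.60 to 0.82, limma adjusted p = 0.948). With the Rb genotype as a covariate it was 0.11 with an SE of 0.22 (limma adjusted p = 0.923).

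Csf1, the main growth factor of the macrophage lineage, was 10.57, 10.71, 10.94 and 11.01 in shRNA OS and 10.75, 11.60, 11.34 and 10.90 in Cre:lox OS. The highest values were those of the humeral tumour and 1 tibial tumour of Cre:lox OS, and both other Cre:lox OS tumours lay within the shRNA OS range. Csf1 differed by -0.35 (SE 0.21, interval -0.81 to 0.12, limma adjusted p = 0.655). Il34, the second ligand of Csf1r, was 7.09, 7.10, 6.61 and 6.75 in shRNA OS and 7.06, 7.37, 7.30 and 8.24 in Cre:lox OS. Only Cre:lox OS replicate 1 lay inside the shRNA OS range, and replicate 4 lay 0.86 above the next tumour. The difference of -0.61 (SE 0.25, interval -1.17 to -0.05) had a limma adjusted p = 0.469 over all genes and passed only before adjustment. Without Cre:lox OS replicate 4 it was -0.36. Il34 values lay around the array medians, and signal over background was not analysed here.

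Tnfrsf11b, the decoy, was 10.42, 9.31, 8.61 and 9.18 in shRNA OS and 8.46, 9.07, 10.10 and 9.15 in Cre:lox OS. It was high in 1 tibial tumour of each model, shRNA OS replicate 1 and Cre:lox OS replicate 3, and the range over the 8 tumours was 3.91-fold. Its SD of 0.67 over the 8 tumours was larger than that of 94.0% of all genes, against 86.6% for Tnfsf11 and 86.4% for Il34. The models differed by 0.19 (SE 0.42, interval -0.75 to 1.12, limma adjusted p = 0.929).

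Tnfrsf11a, the receptor, was 9.07, 9.07, 9.62 and 9.25 in shRNA OS and 9.28, 9.69, 9.71 and 9.47 in Cre:lox OS. Only shRNA OS replicate 3 reached into the upper Cre:lox OS values. The difference was -0.29 (SE 0.17, interval -0.67 to 0.09, limma adjusted p = 0.648). Traf6 was 8.94, 8.63, 9.23 and 9.02 in shRNA OS and 9.09, 9.08, 8.61 and 8.74 in Cre:lox OS, the smallest spread of the 6 genes (SD 0.23). Its difference was 0.07 (SE 0.17, limma adjusted p = 0.932).

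**Figure D1:**
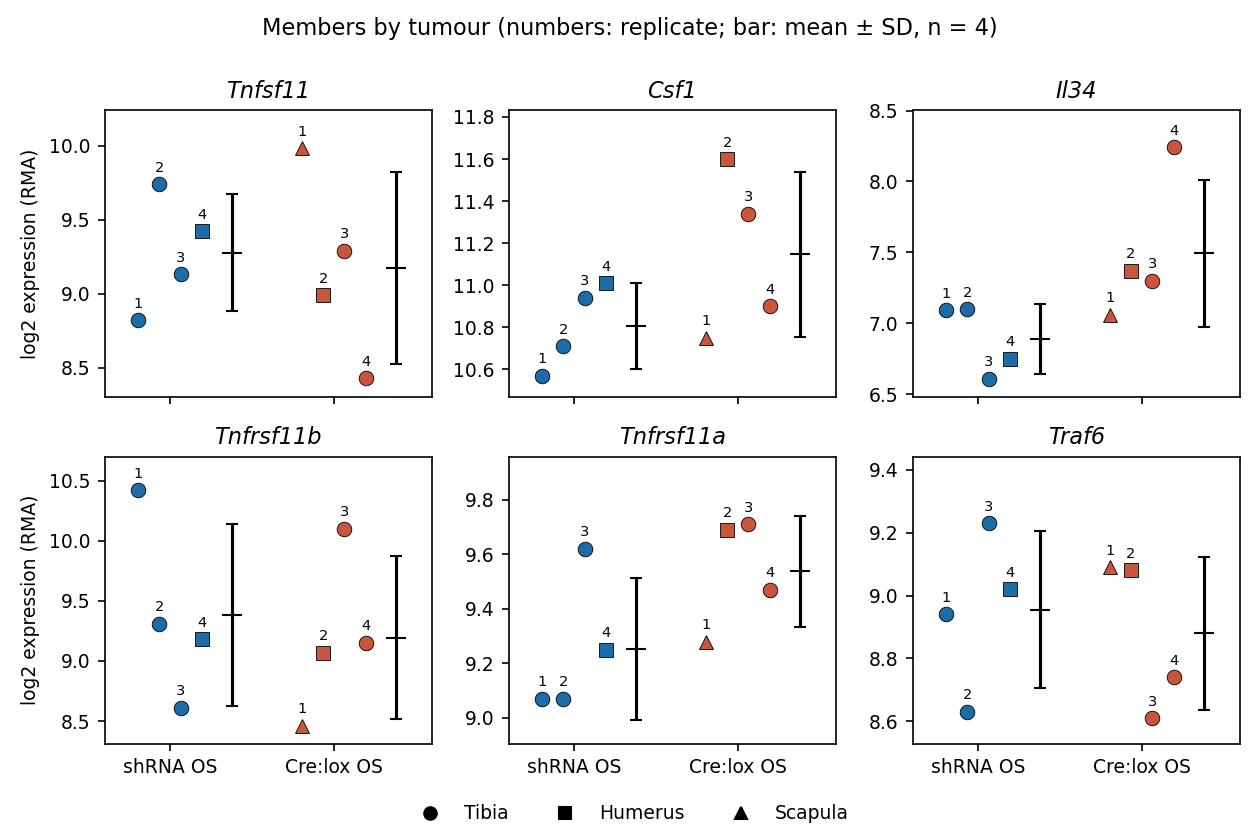
Each panel shows log2 expression of 1 gene in the 8 tumours, by model on the x axis, with the bone as symbol, the replicate as number and the mean ± SD (n = 4) as a bar; the y axes differ between panels. All 6 genes overlap between the models; Tnfrsf11b is highest in shRNA OS replicate 1 (10.42) and Cre:lox OS replicate 3 (10.10), and Il34 in Cre:lox OS replicate 4 (8.24).

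Between the models 0 of the 6 members passed the adjusted threshold of 0.05 in limma, where 4 of 19938 genes (0.0201%) did. At an unadjusted p under 0.05 the count was 1 of 6, against 9.63% of all genes, and in 0 of 6 did the models not overlap, against 5.44% of all genes. When the tumours of a gene were ordered, neighbours in the order differed by more than the SD within models at 3 steps: below the 2 highest tumours of Tnfrsf11b (0.79) and of Csf1 (0.34), and below the highest tumour of Il34 (0.86). At the other steps neighbours did not differ beyond that spread.

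By bone, the question is whether the 5 tibial tumours differed from the 3 at other sites, with a term for model in the fit. Tnfsf11 was 9.08 ± 0.49 (SD, n = 5) in tibial tumours and 9.46 ± 0.49 (n = 3) in the others, with a fitted difference of -0.44 (SE 0.32, interval -1.17 to 0.29), or -0.33 (SE 0.23) with the Rb genotype as a covariate. Tnfrsf11b went the other way, with 9.52 ± 0.73 in tibial tumours against 8.91 ± 0.39 and a fitted difference of 0.61 (SE 0.42, interval -0.34 to 1.55). The 2 highest Tnfrsf11b values were tibial, but so was the second lowest. Fitted differences were 0.39 for Il34 (SE 0.25), -0.27 for Traf6 (SE 0.18), -0.14 for Csf1 (SE 0.23) and 0.06 for Tnfrsf11a (SE 0.19). In limma 0 of 6 passed (adjusted p from 0.969 to 0.999), as did 0% of all genes. At an unadjusted p under 0.05 the count was 0 of 6 against 5.64% of all genes, and 0 of 6 had bones that did not overlap against 2.6%. The humerus and scapula were pooled, and 1 of the 3 tumours was scapular.

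**Figure D2:**
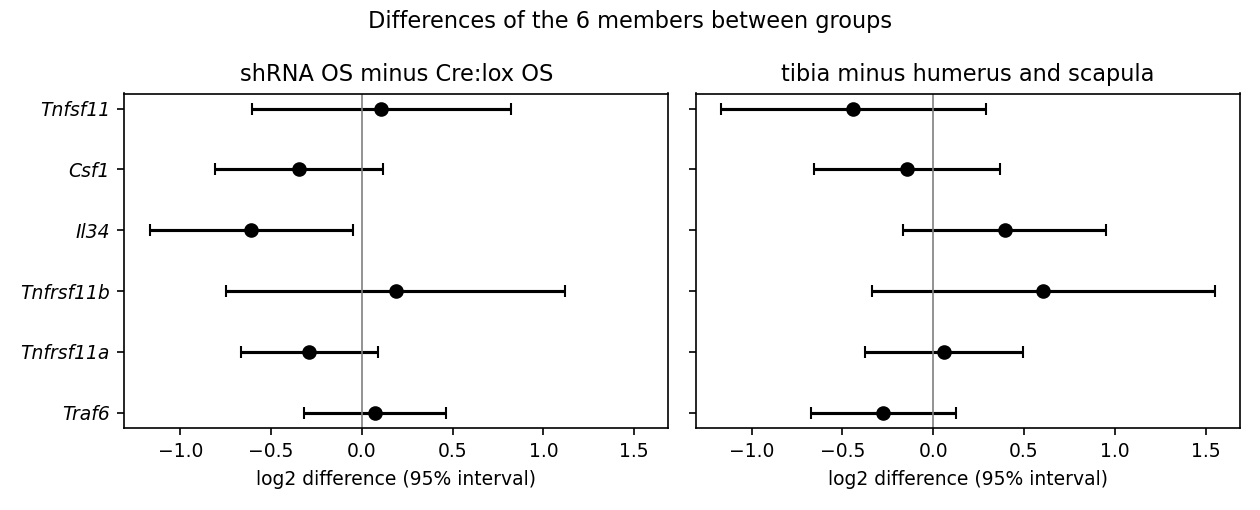
Points show the limma log2 difference of each member and bars its 95% interval, for shRNA OS minus Cre:lox OS (left) and for tibial minus other bones, fitted with a term for model (right). The interval of Il34 between models (-1.17 to -0.05) is the only one of the 12 that does not include 0, before adjustment.

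The log2 difference Tnfsf11 minus Tnfrsf11b puts the ligand and its decoy on 1 scale per tumour. Its zero point depends on the 2 probe sets, so only changes between tumours are read. It was -1.60, 0.43, 0.51 and 0.24 in shRNA OS and 1.52, -0.08, -0.81 and -0.72 in Cre:lox OS. The lowest and highest tumours were 8.67-fold apart, and each model held both low and high tumours. The 3 lowest were all tibial, but the other tibial tumours, shRNA OS replicates 2 and 3, ranked just below the highest tumour.

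Between models the difference was -0.10 ± 1.003 against -0.03 ± 1.08 (SD, n = 4 each), with p = 0.914 in an exact 2-sided permutation test over 70 arrangements, which can give no p below 0.0286. Its direction turned to 0.55 in tibial tumours alone and to 0.26 in Rbfl/+ tumours alone. By bone, it was -0.44 ± 0.90 in the 5 tibial and 0.56 ± 0.85 in the 3 other tumours. The mean within-model difference, tibia minus other, was -0.97, with p = 0.25 in an exact 2-sided permutation test within models (24 arrangements, smallest possible p 0.0417). Within shRNA OS the tibial mean was -0.22 against 0.24 in the single humeral tumour, and within Cre:lox OS it was -0.77 against 0.72.

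Osteoclast genes were set beside these values. An osteoclast score was taken as the mean, over 13 markers, of the log2 value minus the gene's mean over the 8 tumours. It was -1.24, 0.14, 0.76 and 0.47 in shRNA OS and 0.53, 0.62, -0.56 and -0.71 in Cre:lox OS. The 3 tumours with the lowest Tnfsf11 minus Tnfrsf11b, namely shRNA OS replicate 1 and Cre:lox OS replicates 3 and 4, were also the 3 with the lowest osteoclast score. Among the other 5 tumours the order was not shared, as the highest difference (1.52) went with a score (0.53) below those of shRNA OS replicate 3 (0.76) and Cre:lox OS replicate 2 (0.62). In bulk tumour RNA, fewer cells of a type and less RNA per cell cannot be told apart.

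Over the 8 tumours, Tnfsf11 minus Tnfrsf11b and the osteoclast score had a Pearson r of 0.85 (exact permutation p = 0.00598, adjusted p = 0.0359 over 6 relations). Spearman's rho was 0.76 (exact permutation p = 0.0368, adjusted p = 0.173), which missed the threshold. The members and markers were chosen with earlier results of these data known, so this is not an independent test. Without the 2 tumours farthest from the median difference, shRNA OS replicate 1 and Cre:lox OS replicate 1, r was 0.85 (exact permutation p = 0.0431, n = 6). Spearman's rho over those 6 tumours was 0.71 (exact permutation p = 0.136), which missed the threshold. Neither p was adjusted. With the model means removed r was 0.86 (adjusted p = 0.0409, permutation test). With the bone means removed too it was 0.79, and the call was lost (adjusted p = 0.0918, permutation test). Both tests permuted the remaining values over all 8 tumours and not within models, so their p-values may be too small. Leaving out 1 tumour gave r between 0.74 and 0.92, and only the omission of replicate 1 or 2 of Cre:lox OS kept the call. Adjusted p by permutation over the 7 tumours left was 0.183 when replicate 1 of shRNA OS was omitted, 0.0774, 0.0917 and 0.0905 for its replicates 2, 3 and 4, and 0.0857 and 0.081 for replicates 3 and 4 of Cre:lox OS.

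Each side of the difference was then taken alone. Tnfsf11 with the osteoclast score gave r = 0.53 (rho 0.38, exact permutation p = 0.178 and 0.36), and 0.31 without its 2 most distant tumours. Tnfrsf11b, a relation added after seeing the data, gave r = -0.83 (rho -0.79, exact permutation p = 0.00903 and 0.0279). Adjusted over the 10 relations then computed, the Pearson p was 0.0451 for Tnfrsf11b and for the difference, and the Spearman p was 0.144 for both. Without shRNA OS replicate 1 and Cre:lox OS replicate 3, the 2 tumours of highest Tnfrsf11b, r for Tnfrsf11b was -0.49 and rho -0.66. Neither passed (exact permutation p = 0.34 and 0.175, n = 6), so that relation rests at least in part on those tumours. Whether the 3 tumours with low osteoclast genes differ from the other 5 in a further way was not tested.

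The markers themselves show the pattern. Ocstamp, needed for the fusion of osteoclast precursors, was 7.68, 9.90, 10.65 and 10.23 in shRNA OS and 10.80, 10.49, 8.36 and 8.34 in Cre:lox OS. Mmp9, a gelatinase abundant in osteoclasts, was 10.12 in shRNA OS replicate 1 and 11.52 and 11.40 in Cre:lox OS replicates 3 and 4, and between 12.96 and 13.30 in the other 5 tumours. Acp5, the tartrate-resistant acid phosphatase used to stain osteoclasts, was 11.15, 12.16 and 12.24 in the same 3 tumours and between 13.31 and 13.62 in the other 5. All 13 markers had a positive r with Tnfsf11 minus Tnfrsf11b, from 0.03 for Ostm1 and 0.15 for Calcr to 0.91 for Ocstamp, with a median of 0.85 (8 tumours, a description across genes that share their cells). Nfatc1, downstream of Traf6, was 9.27 and 9.24 in Cre:lox OS replicates 3 and 4, lower still in shRNA OS replicate 1, and between 9.61 and 10.53 in the other 5 tumours. Its r with the difference was 0.71 (rho 0.71, exact permutation p = 0.0502 and 0.0576), a relation added after seeing the data.

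**Figure D3:**
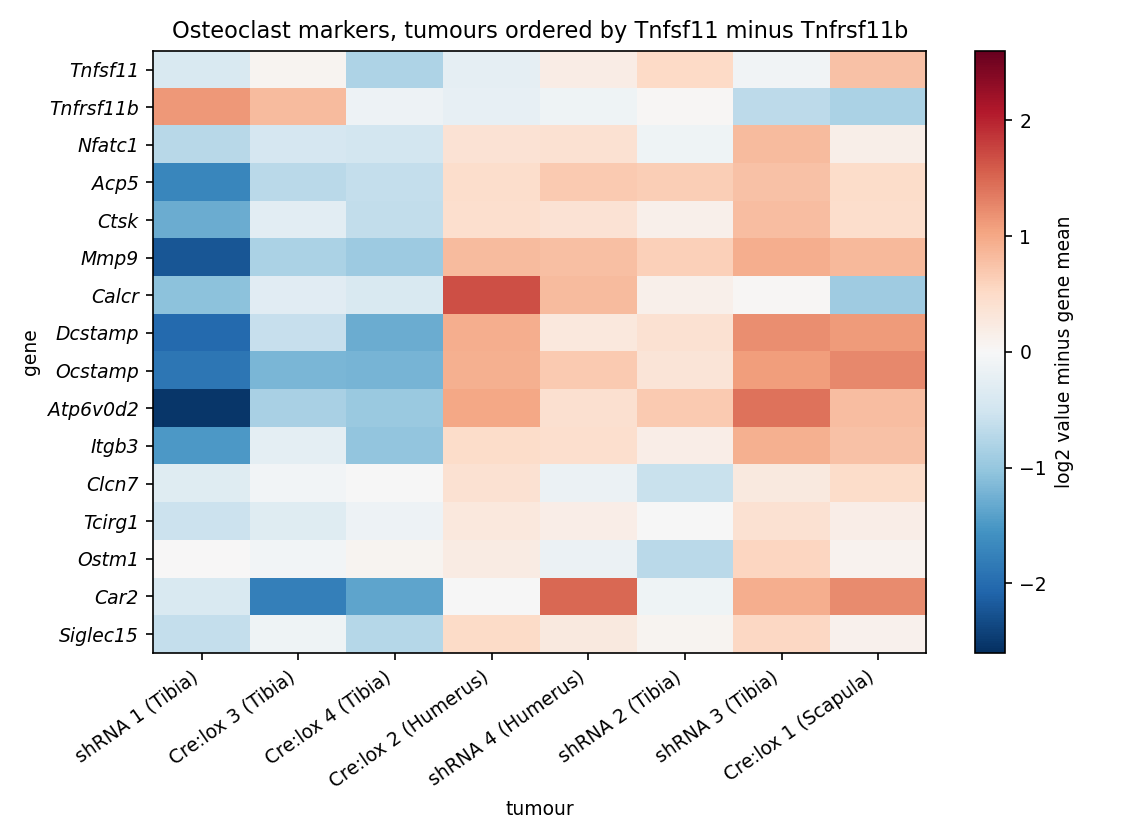
Colour shows the log2 value minus the gene's mean over 8 tumours, with Tnfsf11, Tnfrsf11b, Nfatc1 and the 13 osteoclast markers as rows and the tumours as columns, ordered from the lowest to the highest Tnfsf11 minus Tnfrsf11b (-1.60 to 1.52). The 3 columns on the left, shRNA OS replicate 1 and Cre:lox OS replicates 3 and 4, are low for most markers.

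Tnfrsf11a with the osteoclast score gave r = 0.26 (rho 0.33, exact permutation p = 0.522 and 0.428). It turned to -0.12 without shRNA OS replicate 1. A relation of the receptor transcript with the osteoclast genes was not detectable over these tumours.

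By bone, 0 of 13 osteoclast markers were higher and 13 lower in tibial tumours, where 44.5% of all genes were higher. Their median difference was -0.96 against -0.03 for all genes, and 0 passed limma's threshold over all genes. At an unadjusted p under 0.05 the count was 2 of 13, against 5.64% of all genes. Without shRNA OS replicate 2, 1 was higher and 12 lower. Car2, the carbonic anhydrase that supplies acid for resorption, had the smallest p (-1.82, SE 0.39, limma adjusted p = 0.616). By model, 9 were higher and 4 lower in shRNA OS, with a median of 0.01 and 0 passing at either level, and 6 and 7 without replicate 2 of that model; Clcn7, a chloride transporter of the resorbing membrane, had the smallest p (-0.39, SE 0.21, limma adjusted p = 0.593).

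Csf1r, the shared receptor of Csf1 and Il34, was 11.36, 10.99, 11.48 and 10.97 in shRNA OS and 10.79, 11.29, 11.52 and 11.70 in Cre:lox OS. Its difference was -0.13 by model (SE 0.22) and 0.46 by bone (SE 0.19), with limma adjusted p of 0.906 and 0.845. A macrophage score over 15 markers, built as above, was 0.69, -0.60, -0.44 and -1.02 in shRNA OS and -0.43, -0.03, 0.91 and 0.93 in Cre:lox OS. The 3 highest were the same tumours that had the lowest osteoclast scores.

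Il34 with the macrophage score gave r = 0.70 (rho 0.71, exact permutation p = 0.0328 and 0.0576, adjusted p = 0.0983 and 0.173), and 0.66 without its 2 most distant tumours (exact permutation p = 0.154, n = 6). Csf1 with the macrophage score gave r = 0.12 (rho 0.05, exact permutation p = 0.778 and 0.935), -0.38 without its 2 most distant tumours and -0.20 with the model means removed. Added after seeing the data, Tnfsf11 minus Tnfrsf11b with the macrophage score gave r = -0.77 (rho -0.67, exact permutation p = 0.0258 and 0.0831, adjusted p = 0.0646 and 0.166 over 10 relations). Without shRNA OS replicate 1 and Cre:lox OS replicate 1, r and rho were -0.92 and -0.71 (exact permutation p = 0.0194 and 0.136, n = 6). The osteoclast score with the macrophage score gave r = -0.81 (rho -0.55, exact permutation p = 0.0215 and 0.171). Without shRNA OS replicate 1 and Cre:lox OS replicate 4, r and rho were -0.71 and -0.09 (exact permutation p = 0.151 and 0.919, n = 6). By Pearson r the macrophage genes ran opposite to the osteoclast genes along the ligand and decoy difference, short of the adjusted threshold. The rank relation of the 2 scores was all but absent without those tumours. The part of the macrophage genes in the difference was not tested.

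**Figure D4:**
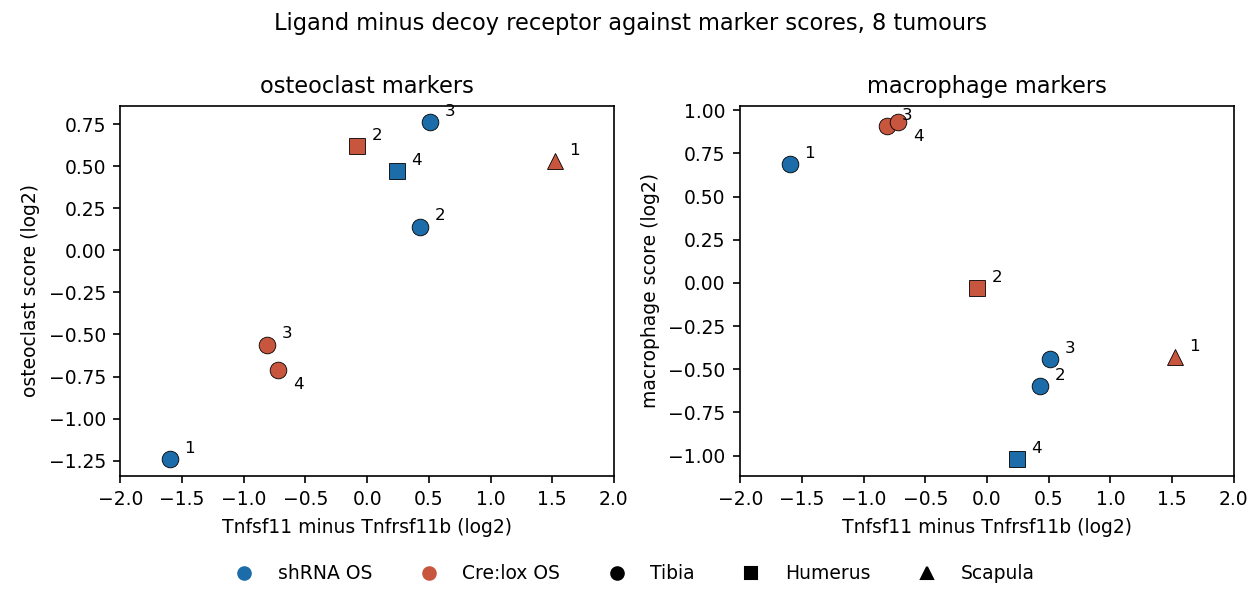
Points are the 8 tumours, with Tnfsf11 minus Tnfrsf11b (log2) on the x axis and the osteoclast score (left) or the macrophage score (right; both mean log2 minus the gene mean) on the y axis, coloured by model, with the bone as symbol and the replicate as number. The 3 tumours at -0.72 or below have the 3 lowest osteoclast scores (-1.24 to -0.56) and the 3 highest macrophage scores (0.69 to 0.93).

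Among 21 pairs of the 6 members and Csf1r, none passed after adjustment (permutation, adjusted p at least 0.0677). The 2 closest pairs were Tnfsf11 with Csf1r (r = -0.86, rho -0.76, exact permutation p = 0.006 and 0.0368) and Tnfrsf11a with Csf1 (r = 0.83, rho 0.81, exact permutation p = 0.00645 and 0.0218). Without the 2 most distant tumours these were -0.64 and 0.70 (exact permutation p = 0.179 and 0.128, n = 6), so both rest in part on those tumours. Tnfsf11 with Tnfrsf11b gave r = -0.34 (rho -0.24, exact permutation p = 0.406 and 0.582).

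Tnfrsf11b lies on chromosome 15. Its 10 nearest measured genes, 5 on each side in RefSeq gene order, are Aard, Slc30a8, Med30, Ext1 and Samd12 on one side and Colec10, Mal2, Ccn3, Taf2 and Dscc1 on the other. Their mean, relative to each gene's own mean, was 0.29, 0.74, -0.37 and -0.53 in shRNA OS and 0.02, 0.35, -0.17 and -0.32 in Cre:lox OS. In shRNA OS replicate 1, Tnfrsf11b stood 1.13 above its mean while Med30, a Mediator subunit, was 8.53 against 6.48 to 7.74 elsewhere and Taf2, a subunit of the general factor TFIID, had its highest value (11.34). Taf2 was almost as high in Cre:lox OS replicate 2 (11.21) and shRNA OS replicate 2 (11.15), where Tnfrsf11b was 9.07 and 9.31. In Cre:lox OS replicate 3 Tnfrsf11b stood 0.81 above its mean and the flanking genes 0.17 below theirs. In shRNA OS replicate 2, where Samd12, Colec10 and Mal2 had their highest values (8.32, 7.81 and 7.33), Tnfrsf11b was 0.02 above its mean. The array of that tumour was the one that correlated less with the others, and its part in these values was not tested.

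Tnfrsf11b with the mean of its 10 flanking genes gave r = 0.23 (rho 0.21, exact permutation p = 0.567 and 0.619), and 0.29 without the 2 most distant tumours. Single flanking genes had r from -0.22 (Ccn3) to 0.58 (Med30) with Tnfrsf11b over the 8 tumours. None of the 10 passed limma between models or bones.

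**Figure D5:**
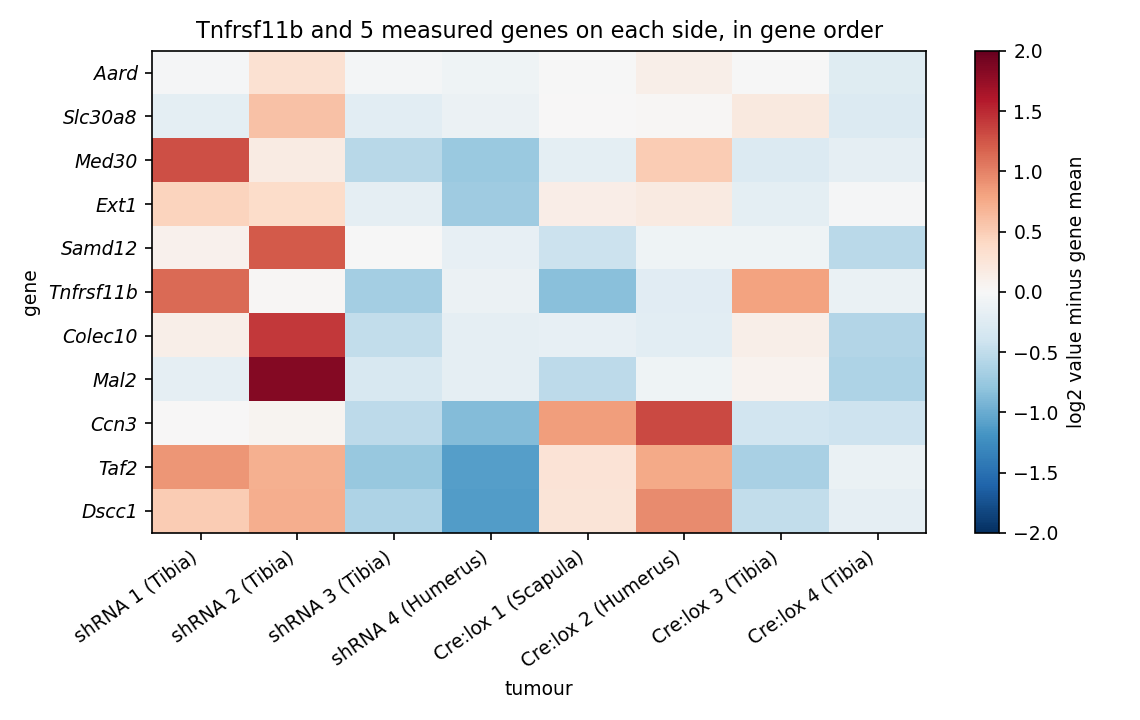
Colour shows the log2 value minus the gene's mean over 8 tumours for Tnfrsf11b and the 5 measured genes on each side, in gene order from top to bottom, with the tumours as columns. Tnfrsf11b is high in shRNA OS replicate 1 with Med30 and Taf2, and high in Cre:lox OS replicate 3 while most flanking genes there lie near or below their means. Taf2 is also high in replicate 2 of each model, where Tnfrsf11b is not.

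Other genes of the pathway were described from 5 lists, and 0 of their 62 measured genes passed limma over all genes in either comparison. At an unadjusted p under 0.05, 4 of the 20 transducers, 1 of 8 co-stimulation genes, 1 of 7 inhibitors, 7 of 20 regulators and 2 of 7 binding partners passed by model, and 0, 2, 3, 5 and 5 by bone, where 9.63% and 5.64% of all genes did. Those by model were 1 higher and 3 lower in shRNA OS for transducers, and 3 and 4 for regulators. Those by bone were 2 higher and 1 lower in tibial tumours for inhibitors, 2 and 3 for regulators and 3 and 2 for binding partners. Of all genes, whatever their p, 51.9% were higher in shRNA OS and 44.5% in tibial tumours. Without shRNA OS replicate 2 the median of the transducers was -0.11 by model (6 higher, 14 lower) and -0.025 by bone, that of the regulators 0.13 by bone and that of the inhibitors 0.006 by bone. The transducers of RANK, 20 measured genes that link Traf6 to NF-kB, MAP kinases and Nfatc1, were higher in shRNA OS in 4 and lower in 16, with a median of -0.17 against 0.01 for all genes. Gab2, a scaffold protein that binds RANK, had the smallest p (0.48, SE 0.14, limma adjusted p = 0.298). By bone 7 were higher and 13 lower in tibial tumours, with a median of -0.04, and Nfatc1 had the smallest p (-0.58, SE 0.31, adjusted p = 0.945). Co-stimulation through ITAM adaptors, which RANK needs to induce Nfatc1, was represented by 8 genes, 7 lower in shRNA OS (median -0.25) and 7 higher in tibial tumours (median 0.37). The kinase gene Btk (-0.55, SE 0.19, adjusted p = 0.398) and the microglia and osteoclast receptor Trem2 (0.92, SE 0.37, adjusted p = 0.833) had the smallest p. The exception in both comparisons was Oscar, at 0.63 by model (SE 0.93) and -1.82 by bone (SE 0.83), neither past the threshold. Oscar was 7.46 in shRNA OS replicate 1 and 8.12 and 8.46 in Cre:lox OS replicates 3 and 4. The other tumours lay between 10.21 and 11.80.

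Of 7 inhibitors of osteoclast formation, 5 were lower in shRNA OS (median -0.24) and 4 higher in tibial tumours (median 0.035). Sfrp1, a secreted Wnt antagonist that also binds RANK ligand, stood at -0.90 by model (SE 0.35, limma adjusted p = 0.44). Irf8, a transcription factor that holds precursors in the macrophage fate, stood at 0.86 by bone (SE 0.33, adjusted p = 0.813). Irf8 was 9.72 in shRNA OS replicate 1 and 9.44 and 9.86 in Cre:lox OS replicates 3 and 4, and between 8.19 and 8.80 in the other 5 tumours. These are the same 3 tumours with low osteoclast genes.

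Regulators of Tnfsf11 in bone-forming cells numbered 20 measured genes, 5 higher and 15 lower in shRNA OS (median -0.23). Vdr, the receptor through which vitamin D induces Tnfsf11, was 10.36 to 11.44 in shRNA OS and 9.15 to 10.26 in Cre:lox OS (1.41, SE 0.29, limma adjusted p = 0.163), while Tnfsf11 itself differed by 0.11. By bone 13 were higher and 7 lower in tibial tumours (median 0.06). Ptgs2, the inducible cyclooxygenase on the path to prostaglandin E2, which induces Tnfsf11, had the smallest p (2.06, SE 0.36, adjusted p = 0.504). Ptgs2 was 9.50 in shRNA OS replicate 1 and 11.05 and 11.26 in Cre:lox OS replicates 3 and 4, and between 7.07 and 8.99 in the others.

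Other binding partners of the ligands comprised 7 genes, 4 higher and 3 lower in both comparisons (medians 0.02 by model and 0.39 by bone). Without shRNA OS replicate 2 the median by model was 0.23. Ptprz1, a receptor phosphatase that binds IL-34, was 9.97 to 11.26 in shRNA OS and 5.58 to 9.87 in Cre:lox OS (2.76, SE 0.79, limma adjusted p = 0.294), so the 2 models did not overlap. Lgr4, a receptor that also binds RANK ligand, stood at -0.96 by bone (SE 0.26, adjusted p = 0.691).

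Markers of cell types that make or answer these ligands were counted the same way, and 0 passed limma in either comparison. Unadjusted, a p under 0.05 by bone was found for 12 of 15 macrophage, 5 of 10 fibroblast, 4 of 10 osteoblast, 2 of 8 osteocyte and 2 of 8 adipocyte markers, against 5.64% of all genes. In tibial tumours these were 12 higher and 0 lower for macrophage and 5 and 0 for fibroblast markers. They were 0 and 4 for osteoblast, 1 and 1 for osteocyte and 0 and 2 for adipocyte markers. By model such a p was found for 6 of 8 osteocyte, 5 of 10 fibroblast, 3 of 10 osteoblast, 3 of 9 chondrocyte, 2 of 10 endothelial and 2 of 15 macrophage markers, against 9.63% of all genes. In shRNA OS these were 4 higher and 2 lower for osteocyte, 1 and 4 for fibroblast and 3 and 0 for osteoblast markers. They were 2 and 1 for chondrocyte, 2 and 0 for endothelial and 0 and 2 for macrophage markers. Besides the osteoclast markers, each remaining cell type had at most 1 in either comparison. Whatever their p, 51.9% of all genes were higher in shRNA OS and 44.5% in tibial tumours. Of 15 macrophage markers 14 were lower in shRNA OS (median -0.70, led by the scavenger receptor Msr1 at -1.55) and 13 higher in tibial tumours (median 1.19, led by the complement gene C1qc at 1.41). Of 10 osteoblast markers 8 were higher in shRNA OS (median 0.18) and 10 lower in tibial tumours (median -0.43), led in both by the sphingomyelinase gene Smpd3 (-0.87 by bone, SE 0.20). Of 8 osteocyte markers, from cells that are a main source of RANK ligand, 6 were higher in shRNA OS (median 0.47, led by the peptidase gene Phex at 3.32) and 3 in tibial tumours (median -0.20, led by Pdpn at 1.27). T and NK cell markers (11 measured) had medians of 0.13 by model and 0.23 by bone, led by Klrb1c (-0.37) and Cd4 (0.43). B cell markers (7 measured) had medians of 0.098 and 0.055, led by Ebf1 (0.89 and -0.61).

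Fibroblast markers (10 measured) had medians of -0.60 by model and 0.50 by bone, led by S100a4 (-1.37) and Lum (2.78). Skeletal muscle markers, from tissue beside the bone, were lower in shRNA OS in 10 of 10 (median -0.72) and higher in tibial tumours in 10 of 10 (median 0.77), led in both by Myl1 (-1.82 and 1.43). Without shRNA OS replicate 2 the muscle medians were -0.28 by model, with 9 of 10 lower, and 1.08 by bone. Small medians also moved without it, to 0.057 and -0.042 for B cell markers by model and by bone, 0.012 for chondrocyte markers by bone and 0.012 for neutrophil and 0.011 for adipocyte markers by model. Medians by model and by bone were 0.235 and 0.11 for chondrocyte markers (Acan -1.49, Comp -0.81), 0.17 and -0.20 for endothelial markers (Tek 1.01, Vwf 0.40), and -0.25 and 0.10 for smooth muscle and pericyte markers (Acta2 1.44, Des 1.17). They were 0.01 and -0.12 for adipocyte markers (Lpl -0.33, Pparg -1.44), 0.03 and 0.22 for neutrophil markers (Mmp8 -0.51, Csf3r 0.81) and 0.05 and -0.13 for erythroid markers (Car1 0.81, Alas2 -0.65). The part of these cell types in the members' values was not tested.

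Lastly, the genes whose values followed each member most closely over the 8 tumours were found by Pearson r among all 19938 genes. As the largest of so many, these values carry no test. For Tnfsf11 they were Spint5 (r = 0.976), Olfr512 (0.955) and Ppp1r2 (0.950). For Tnfrsf11b they were Tmem150b (0.944), Lrrc69 (0.944) and Gapdhs (0.939), none of them on chromosome 15. For Tnfrsf11a they were Nr1d1 (0.967), Col8a1 (0.956) and Thap7 (0.945). For Csf1 they were the probe set annotated Mir32 (0.950), Il1f8 (0.924) and Tmem167b (0.916), the last on chromosome 3 as Csf1 is, with 26 measured genes between them. For Il34 they were the complement protease gene C1ra (0.974), Hmga2 (0.970) and the chemokine gene Cx3cl1 (0.970), all highest in Cre:lox OS replicate 4 (7.80, 8.59 and 9.43), as Il34 was. For Traf6 they were Ankrd13b (0.980), Eif1b (0.972) and Zfp9 (0.971). Some of the genes named here were read at low levels over a narrow range. Examples are Olfr512 (3.61 to 4.22), Lrrc69 (4.18 to 4.47) and Il1f8 (3.86 to 4.29), and signal over background was not analysed.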

How the data were processed

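The authors deposited log2 expression values computed with RMA, per the submitters' processing notes. These list mm9 as genome build. The RMA version is not given in the sources used here. The platform annotation named the probe sets, and of 35556 the 21789 with 1 gene symbol were used, giving 19938 genes (the probe set of highest mean over the 8 arrays for each). RefSeq (GRCm38.p6) gave names, gene order and promoter sequence.

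Differences were tested with limma 3.58.1 in R 4.3.3 (lmFit and eBayes, no filter on dim genes) with Benjamini-Hochberg adjustment over all genes and a threshold of 0.05. The model comparison had no covariate and that of bones had the model. Single values per tumour were tested by exact 2-sided permutation and relations over tumours by all 40320 pairings. Replicate numbers follow accession order, so they are names only. Tested on simulated data of 19938 genes, the model fit recovered 64 of 100 2-fold and 92 of 100 4-fold changes, with 9 false calls. The bone fit recovered 47 and 83, with 5 false calls. These counts hold for the simulated data only. How many such changes would be recovered for the members, at their own spread in these tumours, was not tested.

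The members and the 19 lists (5 of the pathway, 14 of cell types) were chosen with earlier results of these data known. Of their genes 62 of 70 and 133 of 141 were measured. Named genes were the members, the gene of smallest p in each list and comparison, Csf1r, Nfatc1, the flanking genes and the 3 genes most like each member (predicted genes, Rik symbols and Y-linked genes left out). Sp7, Col1a1, Ocstamp, Mmp9, Acp5, Ostm1, Calcr and Oscar were named after their values were seen. Alternatives changed the normalization, the filter on dim genes, the choice of probe set, the eBayes settings, array weights, covariates and the tumours included.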

Additional observations from a re-analysis of the deposited data

Results flagged for a closer look

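Dixon's gap criterion was applied within each model (4 tumours) to the 6 members, the difference Tnfsf11 minus Tnfrsf11b, the flanking genes of Tnfrsf11b and the osteoclast and macrophage scores. Of 20 such groups 1 passed, and chance passes about 1 in 20. It was Tnfsf11 minus Tnfrsf11b in shRNA OS, where replicate 1 stood at -1.60 and the other 3 between 0.24 and 0.51.

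The mean of the 10 genes that flank Tnfrsf11b moved in opposite directions by bone in the 2 models. The tibial mean was 0.75 above the humeral tumour in shRNA OS and -0.43 relative to the humeral and scapular tumours in Cre:lox OS. This difference was not tested, and shRNA OS held 1 humeral tumour. The tibial mean of shRNA OS includes replicate 2 (0.74), whose array correlated less with the others.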

How the results depend on the processing

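Neither comparison gave a called member in limma under any of the 19 alternatives by model or 17 by bone, with a smallest adjusted p of 0.299 and 0.705 and between 0 and 42 (model) or 0 and 1 (bone) called genes among all. Il34 was not among the genes above the median level and has no value there. The sign turned for Tnfsf11 by model with array weights (-0.14), for Tnfrsf11b by model in tibial (-0.18) and Rbfl/+ (-0.04) tumours and for Tnfrsf11a by bone with no model term (-0.02). Tnfsf11 minus Tnfrsf11b by model turned to 0.26 in Rbfl/+ and 0.55 in tibial tumours, and Csf1 with the macrophage score to -0.20 with model means and -0.0016 with model and bone means removed. The cause was not tested. Of the 6 planned relations, only that of Tnfsf11 minus Tnfrsf11b with the osteoclast score was called. The members and lists in these relations were chosen with earlier results of these data known. With model and bone means removed, r of the called relation was 0.79 (adjusted p = 0.0918, permutation).

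Leaving out 1 tumour by model gave -0.14 to 0.38 for Tnfsf11, -0.41 to -0.23 for Tnfrsf11a, -0.16 to 0.49 for Tnfrsf11b, -0.48 to -0.19 for Csf1, -0.75 to -0.36 for Il34 and -0.02 to 0.18 for Traf6. By bone it gave -0.63 to -0.17, -0.05 to 0.15, 0.32 to 0.86, -0.37 to 0.03, 0.14 to 0.58 and -0.41 to -0.21 in that order. Tnfsf11 minus Tnfrsf11b ran from -0.34 to 0.44 by model and -1.49 to -0.57 by bone. The r with the osteoclast score ran from 0.74 to 0.92 for that difference, 0.40 to 0.64 for Tnfsf11 and -0.12 to 0.49 for Tnfrsf11a. The r with the macrophage score ran from -0.12 to 0.36 for Csf1 and 0.60 to 0.79 for Il34, and that of Tnfrsf11b with its flanking genes from 0.07 to 0.36. No paired analysis was possible because the labels give tumours of the models no shared numbers. With 8 arrays the 95% interval of Tnfrsf11b between models spans -0.75 to 1.12, wider than that of Traf6 (-0.32 to 0.47), so smaller differences are detectable for some members than for others.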
